A study of Mus musculus with 12 samples.

Results

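The replication-dependent histone genes of the mouse lie in the clusters Hist1 on chromosome 13, Hist2 on chromosome 3 and Hist3 on chromosome 11, with the lone gene Hist4h4 on chromosome 6. Members were taken by name, as the protein-coding genes with a symbol of these clusters in GENCODE M21, which gave 65 of the 48709 genes counted. Of the 65, 15 reached 5 counts in 6 or more of the 12 libraries and were tested for a difference between mimic and control, among 18847 genes tested. The other 50 stayed below this limit, and 11 of them had no count in any library. Just inside the limit were Hist1h1a, which reached 5 counts in 1 control and 6 mimic libraries, and Hist1h4h, which did so in 3 and 4. Just outside were Hist1h1b and Hist2h2ac, each in 2 control and 3 mimic libraries.

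RNA was sequenced from primary hippocampal cultures of CD1 mouse embryos at embryonic day 17, prepared from hippocampi that were pooled, and holding glial cells besides neurons. At day 10 in vitro all cultures received lipid nanoparticles with apolipoprotein E4. In 6 cultures the particles carried a miR-148a-3p mimic, a synthetic RNA given to raise this microRNA, and in 6 control cultures a control oligonucleotide, which the series text calls a siRNA. RNA was taken 48 h later, at day 12, selected for poly(A) tails and read as 50 bp single-end reads. Nothing in the sources used here says that the 6 samples of a group came from separate preparations, so p-values measure the spread between these samples. The comparison asks which transcripts change in neuronal cultures when miR-148a-3p is raised.

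Core histones H2A, H2B, H3 and H4 form the spool around which DNA is wound, and the linker histone H1 sits where the DNA enters and leaves it. Most of these proteins are made during S phase, when new DNA has to be packaged, from short genes without introns. The mRNAs of these genes usually end just behind a stem-loop, a short hairpin that the stem-loop binding protein Slbp recognises, and carry no poly(A) tail. A part of the family is also known to give polyadenylated transcripts that run on past the stem-loop, mainly in cells that have left the cell cycle. Selection for poly(A) tails favours such transcripts, so the counts below do not measure the total histone mRNA. The share of the counts that came from transcripts without a tail was not tested.

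The stem-loop was searched for in the annotated 3′ untranslated region (UTR) of each member, on GRCm38, the same build as mm10. A match to the consensus was found in 44 of 65 members and in 11 of the 15 that were tested. The sequences are shown because they mark where the usual histone mRNA ends, with the bases of the paired stem in capitals. The first is shared by 24 members, among them the linker gene Hist1h1c and the H2A and H2B genes of the Hist3 cluster. The second is found in the H4 genes Hist1h4i, which was called higher, and Hist2h4, which was not called, and the third in 7 further H4 genes, Hist1h4h included.
Hist1h1c (chr13:23739512-23739527, plus strand): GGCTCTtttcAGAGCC
Hist1h4i (chr13:22040966-22040981, minus strand): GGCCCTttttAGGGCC
Hist1h4h (chr13:23531458-23531473, plus strand): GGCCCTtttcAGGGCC
In the 11 tested members the match began 25 to 42 bases after the stop codon. Of 15082 tested genes with an annotated 3′ UTR, 18 (0.119%) had a match within the first 80 bases after the stop codon, and 11 of these were the tested members. The other 7 included H2afx, a histone variant gene outside the clusters.

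In the 11 tested members with a match, the annotated UTR went on past the stem-loop. The remaining UTR behind it measured 840 bases in Hist1h1c, 1643 in Hist3h2a, 169 in Hist3h2ba, 330 in Hist1h4i and 377 in Hist2h3c2, and 46 in Hist1h4h. Over all members the longest annotated 3′ UTR had a median of 94 bases, and over the 15 tested members of 742. Of 24 members with a UTR of 200 bases or more 12 were tested, against 3 of 41 with a shorter one. A polyadenylation signal, AATAAA or ATTAAA, lay in the last 40 bases of the UTR in 8 of the 15 tested and in 9 of the 50 other members, compared with 76.5% of all tested genes with a UTR. All 5 members with a mean above 100 counts, Hist1h1c, Hist3h2a, Hist1h2bc, Hist3h2ba and Hist2h2be, had a UTR of 213 bases or more. Hist1h2bc, which is spliced from 2 exons, and Hist2h2be had no stem-loop match in their annotated UTR, and nor did Hist1h1a, with an annotated UTR of 48 bases, and Hist1h2ba, with 0. The UTR lengths are those of the annotation and were not measured in these libraries.

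The members resemble each other in sequence, and a read of 50 bases can match several of them. For each gene, the share of the 50-base windows of its transcripts that occur in no other GENCODE M21 gene was counted. Its median was 45.0% over all members, 71.1% over the tested members and 2.68% over the 11 members without a count. Of 34 members with under 50% of such windows 1 was tested, Hist2h3c2 with 36.5%, which shares 63.5% of its windows with its neighbour copy Hist2h3c1. A window can also be shared because another gene is annotated over the same bases. Hist2h2aa1, Hist2h2aa2, Hist2h2bb, Hist2h3b and Hist2h3c1, all without a count, had 0% of windows of their own. All their exon bases lie under genes outside the clusters, such as Gm20634 over the 1825 bases of Hist2h3c1. How the counting treated reads that match several or overlapping genes is not given in the sources used here. The counts of such members are thus uncertain, and a low count does not show low expression. The tested members were chosen by their counts, so what sets them apart from the other members is a description only.

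**Figure D1:**
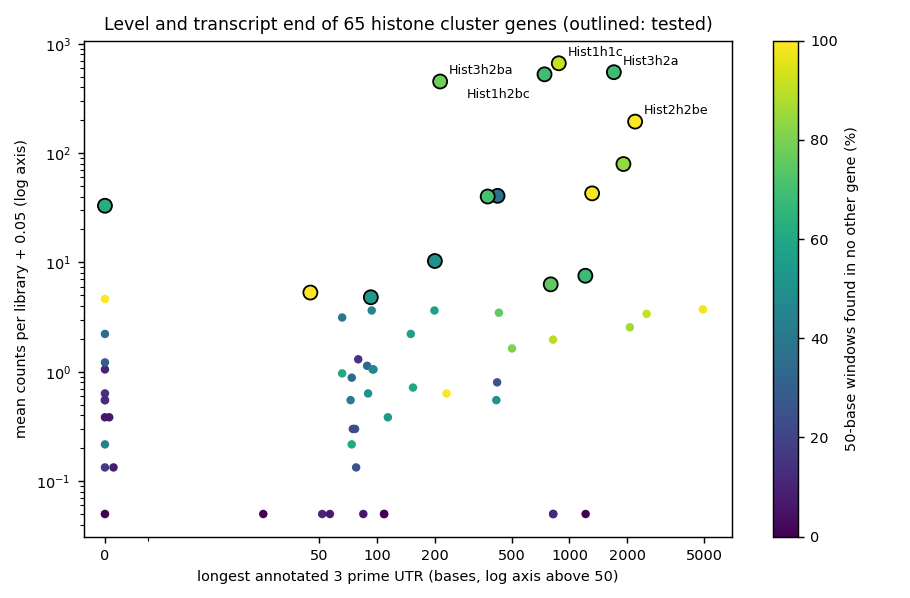
Mean counts per library (plus 0.05, log axis) of the 65 members against the length of their longest annotated 3′ UTR in bases, coloured by the share of 50-base windows found in no other gene; outlined points are the 15 tested members. The 5 named members above 100 counts all have UTRs of 213 bases or more, and Hist2h3c2, at 36.5%, is the one outlined point with under 50% of such windows.

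Library totals ran from 20018234 to 37149112 counts. Control replicate 1, the shallowest, also stood apart from the other controls, with a mean distance of 0.262 (root mean square difference of log2(CPM + 1)) against 0.170 to 0.201 for the other 5, so the counts of calls are given without it as well. Expression is in CPM, counts per 1000000 counts of the library after TMM scaling, and is shown as the lowest, median and highest of the 6 libraries of a group and in part as mean ± SD. Per kilobase of exon, the highest members were Hist3h2ba at 24.6 CPM per kb, Hist1h2bc at 15.1, Hist1h1c at 14.2 and Hist3h2a at 8.50, as means over all 12 libraries. The 15 tested members ran down from there to Hist1h1e at 0.126 CPM per kb.

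Of the 15 tested members, 6 were higher in mimic at an edgeR adjusted p under 0.05 and 0 were lower. Over all tested genes 11.5% were called higher and 10.7% lower. In these bulk samples, more cells of a type and more RNA per cell cannot be told apart. The 6 were the linker genes Hist1h1a and Hist1h1c, the H2B genes Hist1h2bc and Hist2h2be, the H3 gene Hist2h3c2 and the H4 gene Hist1h4i. Hist1h1a passed the count limit mainly through the mimic libraries, where it is high, and without it the count was 5 of 14 and the median log2 fold change given next was 0.32. The median log2 fold change of the 15 was 0.36, against -0.012 over all tested genes, whose 5th and 95th percentiles were -0.47 and 0.50. At an unadjusted p under 0.05 the members numbered 9, all higher and Hist1h1a among them, while 16.1% of all tested genes were higher and 16.6% lower by this measure. In 4 members all 6 mimic libraries lay above all 6 control libraries, Hist1h1c, Hist1h2ba, Hist2h2be and Hist1h4i, as in 7.43% of all tested genes, and in no member below. Without control replicate 1, 7 members were called higher, with Hist1h3d in addition, and the share of all tested genes called higher was 14.3%.

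**Figure D2:**
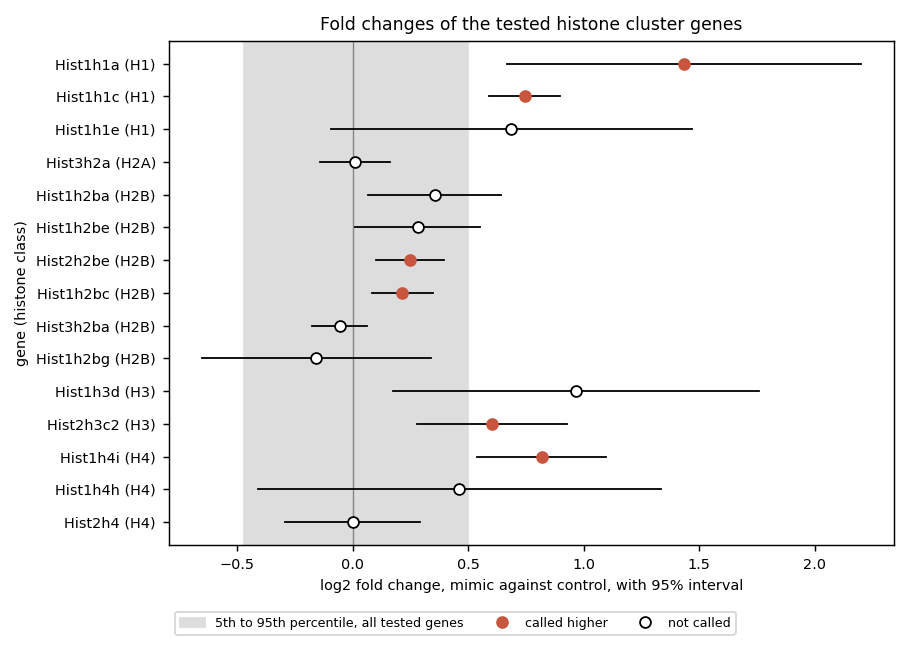
Log2 fold change of mimic against control with its 95% interval for the 15 tested members, grouped by histone class; filled points are called higher, and the grey band spans the 5th to 95th percentile of all tested genes (-0.47 to 0.50). Hist1h1a, Hist1h1c, Hist2h3c2 and Hist1h4i are called and lie right of the band, while Hist3h2a, Hist3h2ba and Hist2h4 sit near 0.

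Among the linker histones, Hist1h1c (ENSMUSG00000036181, mm10 chr13:23738808-23740367) was the most abundant. It had 15.1, 15.96 and 19.6 CPM in control and 25.4, 26.0 and 32.1 CPM in mimic as lowest, median and highest value. The groups did not overlap, and control replicate 1 was the highest control. Its level rose from 16.6 ± 1.59 to 27.7 ± 2.94 CPM (SD, n = 6 each). The log2 fold change was 0.74 (edgeR adjusted p = 7.85e-07, SE 0.072). Leaving out any library gave values from 0.70 to 0.79. Of its windows 91.5% occur in no other gene, and 96.4% to 98.7% of the linker CPM of a control library came from this gene.

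Hist1h1a (ENSMUSG00000049539, chr13:23763666-23764406) was detected at the limit of these libraries, with 16 counts in all in control and 47 in mimic. It ran from 0.0358 over a median of 0.0711 to 0.189 CPM in control, and from 0.188 over 0.235 to 0.351 CPM in mimic. Of the 6 mimic libraries 5 lay above the highest control, replicate 3. The log2 fold change was 1.43 (edgeR adjusted p = 0.00794, SE 0.36). DESeq2 gave no adjusted p for this gene, nor for Hist1h1e, Hist1h3d and Hist1h4h, and an unadjusted p of 0.00263. Hist1h1e had 33 counts in all in control and 57 in mimic, and at a log2 fold change of 0.69 it missed the threshold (edgeR adjusted p = 0.215, SE 0.37). Mimic replicate 3 alone held 20 of its counts, against 4 to 9 in the other mimics, and without this library the log2 fold change was 0.37. It shares 496 exon bases with Hist1h2be on the same strand. The 3 linker genes that were not tested, Hist1h1b, Hist1h1d and Hist1h1t, together had 41 counts in control and 65 in mimic.

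The H2A class had 18 members, and Hist3h2a alone was tested (ENSMUSG00000078851, chr11:58954685-58956830). It had 15.5, 18.5 and 20.3 CPM in control and 17.1, 17.97 and 19.8 CPM in mimic. The mimic libraries lay within the range of the controls. Control replicates 1 to 3 had 15.5 to 17.4 CPM and control replicates 4 to 6 had 19.6 to 20.3 CPM. The log2 fold change was 0.01, with a 95% interval from -0.14 to 0.16 (edgeR adjusted p = 0.950). Its exons share 708 bases with Trim17, a gene on the same strand with a mean of 98.5 counts per library, so that part of the reads could belong to either. The other 17 H2A genes together had 88 counts in control and 101 in mimic.

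Of 16 H2B genes 6 were tested, and they carried the largest part of the summed histone level. Hist1h2bc (ENSMUSG00000018102, chr13:23684199-23692908) had 14.7, 16.02 and 17.9 CPM in control and 17.4, 18.6 and 20.9 CPM in mimic. The groups overlapped, with 4 of 6 mimic libraries above the highest control. It rose by 0.22 on the log2 scale (edgeR adjusted p = 0.0196, SE 0.063), but did not pass without control replicate 3 (adjusted p = 0.0554) or without mimic replicate 3 (adjusted p = 0.0505). Hist2h2be (ENSMUSG00000068854, chr3:96221119-96223738), all of whose windows are its own, had 5.20, 5.90 and 6.36 CPM in control and 6.43, 6.97 and 7.77 CPM in mimic. Its groups did not overlap, and it rose by 0.25 (edgeR adjusted p = 0.0162, SE 0.070).

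Hist3h2ba (ENSMUSG00000056895, chr11:58948920-58949533), the neighbour of Hist3h2a, had 14.4, 15.3 and 16.5 CPM in control and 13.9, 14.4 and 16.8 CPM in mimic. Its groups overlapped, and the log2 fold change was -0.06 with a 95% interval from -0.17 to 0.06 (edgeR adjusted p = 0.544). The interval of Hist1h1c, from 0.59 to 0.90, lay outside those of both Hist3 genes. The remaining H2B genes did not pass. Hist1h2ba, known as an H2B gene of the testis, had 0.757, 1.01 and 1.11 CPM in control and 1.13, 1.17 and 1.42 CPM in mimic, without overlap, and a log2 fold change of 0.36 (edgeR adjusted p = 0.0735, SE 0.14). Hist1h2be was at 0.28 (edgeR adjusted p = 0.134, SE 0.13) and Hist1h2bg at -0.16 (edgeR adjusted p = 0.718, SE 0.23). The value of Hist1h2be was 0.18 without control replicate 3, and that of Hist1h2bg ran from -0.24 to -0.011 when single libraries were left out, at these ends without control replicates 6 and 5.

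For H3, Hist2h3c2 (chr3:96238108-96239127) had 0.866, 1.02 and 1.503 CPM in control and 1.31, 1.72 and 1.94 CPM in mimic. The highest control was replicate 6, and 4 of 6 mimic libraries lay above it. The log2 fold change was 0.60 (edgeR adjusted p = 0.00807, SE 0.15). Hist1h3d had 24 counts in all in control and 51 in mimic, a log2 fold change of 0.97 (edgeR adjusted p = 0.0772, SE 0.37), and an adjusted p of 0.0358 without control replicate 1. The 10 H3 genes below the limit together had 27 counts in control and 33 in mimic.

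The H4 genes encode the same protein, and 3 of them were tested. Hist1h4i (ENSMUSG00000060639, chr13:22040636-22041362) had 0.773, 1.01 and 1.07 CPM in control and 1.41, 1.79 and 1.91 CPM in mimic, without overlap. It rose from 0.956 ± 0.135 to 1.70 ± 0.214 CPM (SD, n = 6 each), by 0.82 on the log2 scale (edgeR adjusted p = 0.000186, SE 0.13). Hist2h4 (chr3:96261682-96263311), at a like level, had 1.19, 1.44 and 1.67 CPM in control and 1.09, 1.45 and 1.82 CPM in mimic, a log2 fold change of -0.00027 with a 95% interval from -0.29 to 0.29 (edgeR adjusted p = 0.999). This interval and that of Hist1h4i, from 0.54 to 1.10, did not overlap. A test of the difference between both genes was not run. Hist1h4h, with 23 counts in all in control and 34 in mimic, had a log2 fold change of 0.46 (edgeR adjusted p = 0.485, SE 0.41), which was 0.25 without control replicate 2 and 0.30 without mimic replicate 4.

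**Figure D3:**
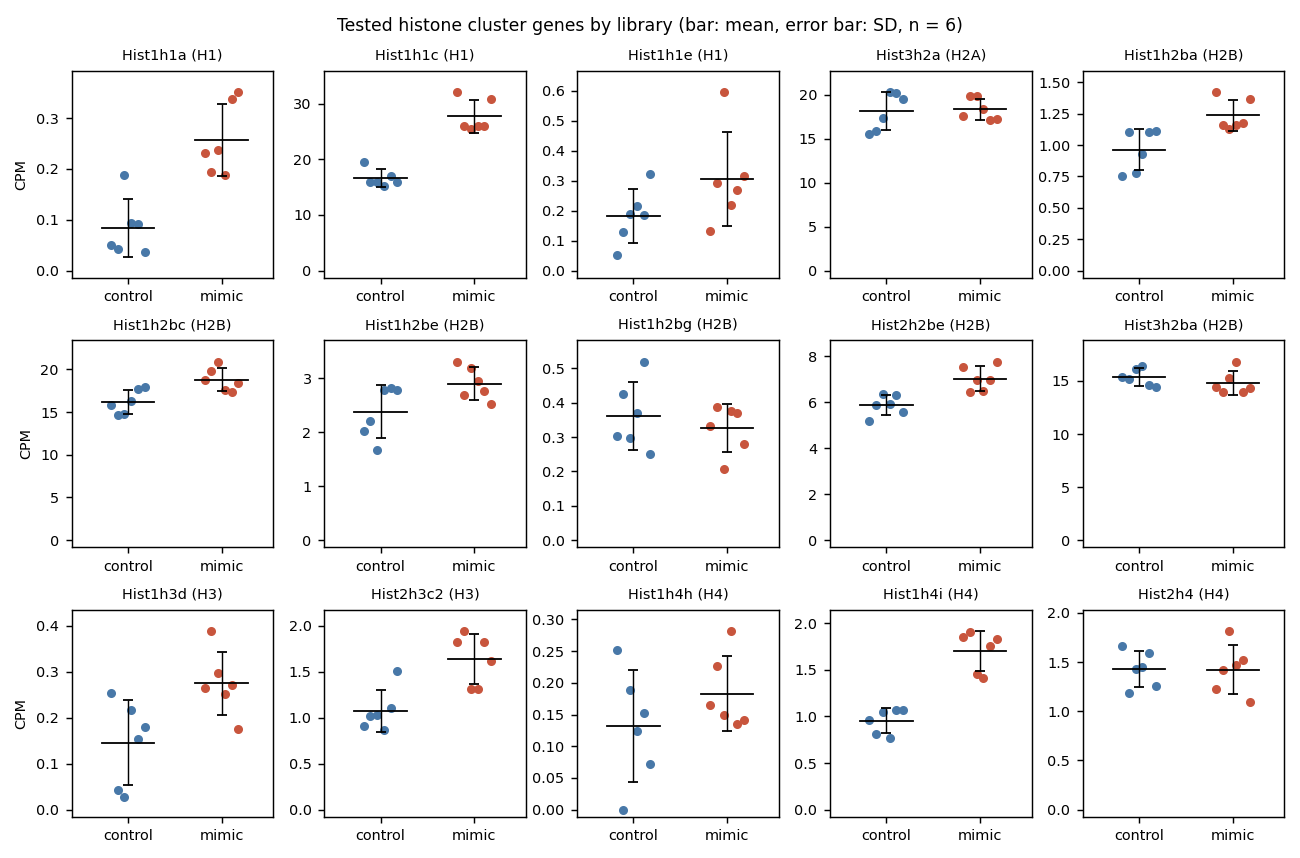
CPM of the 15 tested members in each of the 6 control and 6 mimic libraries, on linear axes that start near 0; lines and error bars are mean and SD. The groups separate in Hist1h1c, Hist1h2ba, Hist2h2be and Hist1h4i, and lie on top of each other in Hist3h2a, Hist3h2ba and Hist2h4.

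Summed over the class, the 6 linker genes went from 17.1 ± 1.49 to 28.6 ± 2.88 CPM, a ratio of 1.67, with controls between 15.6 and 19.8 and mimics between 26.5 and 32.9. The 59 core genes went from 64.4 ± 3.98 to 70.1 ± 2.42 CPM, a ratio of 1.09, and the groups overlapped, at 59.6 to 68.6 in control and 66.8 to 73.6 in mimic. The linker share of the summed level was 21.02% ± 2.08 in control and 29.0% ± 2.32 in mimic (SD, n = 6 each), with no overlap (18.7% to 24.7% and 26.5% to 31.9%). Within the core, H2B went from 41.4 ± 1.60 to 45.4 ± 1.59 CPM, H4 from 2.99 ± 0.362 to 3.76 ± 0.192, H3 from 1.37 ± 0.217 to 2.09 ± 0.318 and H2A from 18.6 ± 2.31 to 18.9 ± 1.26 (SD, n = 6 each). The 2 Hist3 genes together gave 33.5 ± 2.24 and 33.1 ± 1.79 CPM, and the core genes of Hist1 with Hist4h4 gave 22.3 ± 1.91 and 26.7 ± 1.36 CPM. These sums weight each gene by its level, and 5 genes made up 87.0% to 89.2% of the total in every library. No test was run on them. The 50 members that were not tested summed to 277 counts in control and 336 in mimic, 1.43% to 2.24% of the summed level.

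**Figure D4:**
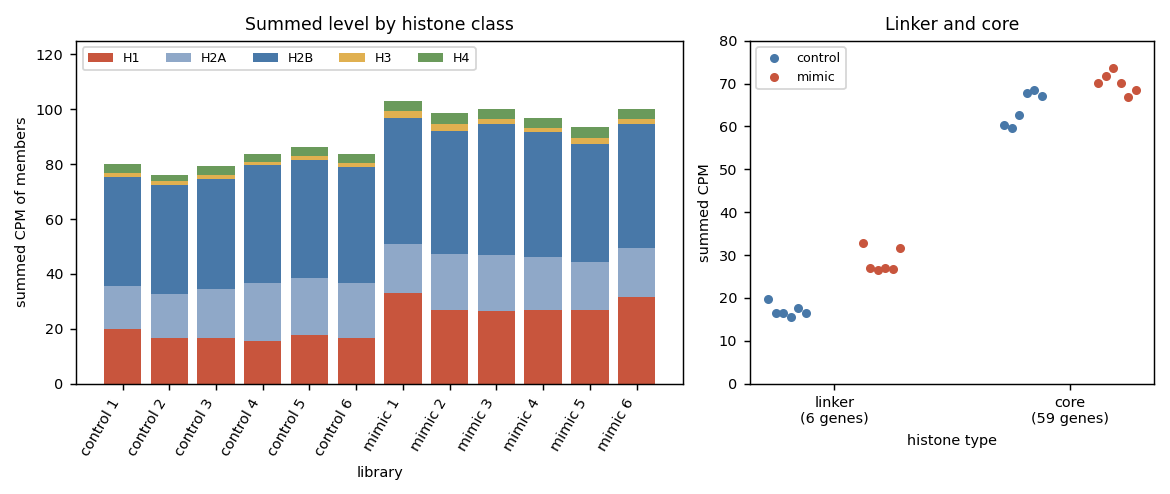
Left, summed CPM of all 65 members in each library, stacked by histone class; right, the sums of the 6 linker and the 59 core genes, 1 point per library. The linker sums of mimic (26.5 to 32.9) lie above all controls (15.6 to 19.8), while the core sums overlap.

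H2A and H2B genes often stand head to head and share the stretch between their starts. Of the members, 24 formed 12 such pairs, with 176 to 306 bases between both starts. In no pair were both genes tested, and in 4 pairs 1 of them was. Hist1h2bc averaged 524.9 counts per library and its partner Hist1h2ac 2.5, Hist2h2be 193.9 and its partner Hist2h2ac 3.58, Hist1h2ba 32.9 and its partner Hist1h2aa 0, and Hist1h2bg 10.25 and its partner Hist1h2ae 3.58. The gap was thus wide in 3 of these pairs and smaller in that of Hist1h2bg, and the counts bear the limit on shared reads given above. Each of these H2A partners also shares 129 to 141 exon bases with a microRNA gene annotated on the opposite strand. No such overlap was found for the H2B genes of these pairs, while the tested Hist3h2a shares 138 bases in this way. The libraries do not mark strand, and what the overlap does to the counts was not tested.

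Stretches before the start were available from RefSeq (GRCm38.p6) for 59 of the 65 members. Hist1h1d, Hist1h2bc, Hist1h3a, Hist1h3f, Hist2h2be and Hist2h4 were not matched. In the 250 bases before the start, each word searched on its own and on both strands, CCAAT was found in 81.4% of the 59 and in 33.8% of all 32851 promoters, TATAAA in 47.5% and 12.4%, the octamer ATTTGCAT in 20.3% and 1.60%, and AAACACA, known as an H1 box, in 11.9% and 6.25%. AAACACA stood in 4 of 5 linker promoters, not in that of Hist1h1a, and also in 2 of 18 H2A and 1 of 14 H2B promoters. The octamer was in 7 of 18 H2A and 5 of 14 H2B promoters and in none of the 5 linker, 10 H3 and 12 H4 promoters. The 150 bases before the start are shown for a linker and an H4 gene that rose and for Hist3h2ba, which was not called, with these words in capitals on either strand.
Hist1h1c (chr13:23738657-23738806, plus strand): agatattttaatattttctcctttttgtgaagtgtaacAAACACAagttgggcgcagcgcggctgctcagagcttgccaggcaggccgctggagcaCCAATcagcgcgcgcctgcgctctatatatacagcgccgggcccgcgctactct
Hist1h4i (chr13:22041363-22041512, minus strand): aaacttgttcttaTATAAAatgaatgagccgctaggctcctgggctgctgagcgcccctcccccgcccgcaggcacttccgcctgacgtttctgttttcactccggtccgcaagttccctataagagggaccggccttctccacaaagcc
Hist3h2ba (chr11:58948761-58948910, plus strand): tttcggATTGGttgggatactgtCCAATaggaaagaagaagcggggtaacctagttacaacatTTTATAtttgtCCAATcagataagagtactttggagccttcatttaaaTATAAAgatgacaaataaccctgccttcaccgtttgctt
Hist1h4i and Hist3h2ba both held TATAAA, Hist1h1c did not, and Hist2h3c2, which rose, held none of the 4 words in its 250 bases. Only exact words were searched, at any position, so a word found need not be a working element. In Hist1h4i, TATAAA stood near the end of the stretch that lies farthest from the start.

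The mimic can act on transcripts that carry its seed site. MiR-148a-3p from RefSeq is shown with its seed, bases 2 to 8, in capitals, above the only site with 8 matching bases among the members, in the 3′ UTR of Hist1h2be with the matching bases in capitals.
mmu-miR-148a-3p: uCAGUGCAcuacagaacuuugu
Hist1h2be (chr13:23583720-23583741, minus strand): gaacctgctgTGCACTGAaatg
Sites were counted where a UTR matched bases 2 to 8, or bases 2 to 7 with an A behind them. Among the 65 members, Hist1h2be had 2 sites and Hist1h1d had 3, and 21.9% of the tested genes with a UTR had at least 1. None of the 6 members called higher had a site. Hist1h2be, with 2 sites, had 1.67, 2.497 and 2.81 CPM in control and 2.53, 2.85 and 3.31 CPM in mimic, with 3 mimic libraries above the highest control.

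The genes that make, process and place histones were described by lists, whose genes were chosen by function. In the list on histone mRNA transcription and 3′ processing 6 of 22 tested genes were higher and 0 lower, with a median log2 fold change of 0.03, beside 11.5% higher and 10.7% lower over all tested genes, the background for every list that follows. The highest were the S phase cyclin Ccne1 (0.61, SE 0.067, edgeR adjusted p = 3.43e-06), its kinase Cdk2 (0.58, SE 0.077, edgeR adjusted p = 2.61e-05) and Ccne2 (0.55, SE 0.13, edgeR adjusted p = 0.00551). Ccne1 had 7.98 to 9.59 CPM in the controls and 11.5 to 14.7 CPM in the mimics. Slbp, which binds the stem-loop, had 21.2, 21.8 and 23.7 CPM in control and 19.5, 21.3 and 22.7 CPM in mimic, and at a log2 fold change of -0.06 it missed the threshold (edgeR adjusted p = 0.385, SE 0.045). Npat, a coactivator of histone transcription and a substrate of that kinase, was at 0.13 (edgeR adjusted p = 0.133, SE 0.060).

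In the list of histone chaperones and chromatin assembly factors 12 of 21 tested genes were higher and 0 lower, with a median of 0.14. Mms22l, which handles histones at broken replication forks, rose by 0.72 (SE 0.091), the chaperone Asf1b by 0.69 (SE 0.094) and Chaf1b, a subunit of chromatin assembly factor 1, by 0.69 (SE 0.078). Their edgeR adjusted p-values were 1.55e-05, 3.22e-05 and 4.73e-06, and their groups did not overlap. Mms22l had 4.67, 5.83 and 6.96 CPM in control and 8.82, 9.64 and 10.4 CPM in mimic. Of the replication-independent histone variants, 5 of 11 tested genes were higher and 1 lower, with a median of 0.18. Cenpa, the H3 variant of centromeres, rose from 9.34 ± 0.818 to 21.3 ± 0.768 CPM (SD, n = 6 each), by 1.18 on the log2 scale (edgeR adjusted p = 3.36e-10, SE 0.056). H2afx rose by 0.99 (edgeR adjusted p = 5.53e-10, SE 0.050) and H2afv by 0.55 (edgeR adjusted p = 3.20e-09, SE 0.033). H2afy, which encodes a macroH2A, fell by 0.22 on the log2 scale (edgeR adjusted p = 0.000459, SE 0.038).

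As a reference for S phase, 20 genes of DNA replication were tested, of which 18 were higher and 0 lower, with a median of 0.55. Mcm3 and Mcm5, subunits of the replicative helicase, and Cdc6, which loads it, rose by 1.04 (SE 0.061), 0.99 (SE 0.049) and 0.88 (SE 0.096). By edgeR, their adjusted p was 2.84e-09, 5.53e-10 and 3.02e-06. The tested histone members, with a median of 0.36, and these lists were measured in the same 12 libraries, and no test between lists was run. The share called higher was 90% for DNA replication and 40% for the histone members, or 35.7% without Hist1h1a, beside the 11.5% of all tested genes.

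**Figure D5:**
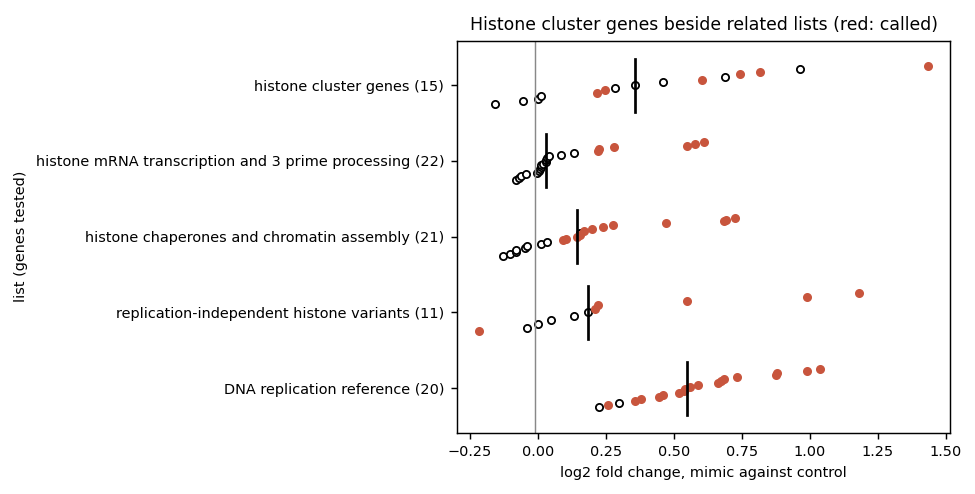
Log2 fold change of mimic against control for each tested gene of the histone clusters and of 4 related lists; red points are called, black bars are list medians and the grey line is the median of all tested genes. The medians are 0.36 for the 15 histone cluster genes, 0.03, 0.14 and 0.18 for processing, chaperones and variants, and 0.55 for DNA replication.

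The markers of other cell types and states did not all move with the groups. Over all tested genes, 11.5% were higher and 10.7% lower. All 6 markers of cycling cells, Mki67, Top2a, Ccna2, Ccnb1, Birc5 and Cdk1, were higher, and their summed level was 169 to 211 CPM in control and 365 to 384 CPM in mimic. Of 7 markers of the oligodendrocyte lineage 5 were higher and 0 lower, with sums of 391 to 679 and 766 to 961 CPM. Of 7 astrocyte markers 4 were higher and 1 lower (4449.7 to 4907 and 5121 to 5629.9 CPM). Slc1a3 rose from a mean of 913 to 1815 CPM and Slc1a2 from 1693 to 2000 CPM, while Gfap, the lower one, fell from 1362 to 731 CPM. Of 7 neuron markers 0 were higher and 2 lower (5142 to 5726 and 5301 to 5570.2 CPM, overlapping). Of 6 microglia markers 0 were higher and 1 lower (9.48 to 11.3 and 8.02 to 14.7 CPM, overlapping), and of 6 tested mesenchymal and vascular markers 0 were higher and 2 lower (158 to 229 and 75.0 to 153 CPM). No marker of these lists was at 0 in all libraries, though Cldn5, a marker of endothelial cells, had only 1 count in all, in a mimic library. The part of these cells in the change of the histone genes was not tested.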

How the data were processed

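RNA from 6 control and 6 mimic samples, grouped by the sample labels, had been sequenced from TruSeq RNA v2 libraries, a kit that selects poly(A) RNA and does not mark strand. The authors aligned the reads to mm10 with STAR 2.5.2b and counted them per gene with featureCounts of Subread 1.5.1, after FastQC 0.11.5, per the submitters' processing notes and the methods of the study. How reads that match several genes were counted is not given in the sources used here. The deposited values used were these raw counts per gene for 48709 Ensembl genes, of which 48349 were named with GENCODE M21. A series table of normalized values was not used.

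The filter of the study, 5 counts or more in 50% of the samples, was applied, and genes were tested with edgeR 4.0.16 by its quasi-likelihood F-test (robust, TMM, R 4.3.3) and no covariate. P-values were adjusted by Benjamini-Hochberg over all 18847 genes and called under 0.05. Standard errors were computed from the fold change and F. CPM values use TMM-scaled totals. The test was checked on simulated counts. Alternatives were DESeq2 size factors, the Wald test of DESeq2 1.42.0, other filters, a minimum fold change, the replicate number as a block and each library left out. Pairs of replicates differed by 1.73 to 39.4 chi-square per degree of freedom, the lowest for controls 4 and 5 and the highest for controls 1 and 4. Samples were counted as the labels list them. Whether libraries share a culture or an RNA sample was not tested. Transcript windows, UTRs and stem-loops came from GENCODE M21 transcripts, and promoters and the microRNA from RefSeq (GRCm38.p6), with starts within 200 bases of each other.

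The members and lists were chosen with earlier results of these data known. Named genes were, per histone class, the 3 tested members with the highest mean count and, among called members averaging 10 counts or more, the 2 largest rises and falls, and per pathway list the 3 called genes with the largest change. Hist1h2ba, Hist1h2be, Hist1h2bg, Slbp, Npat, H2afy and the promoters shown were chosen after their values were seen, as were the members below the count limit.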

Additional observations from a re-analysis of the deposited data

Results flagged for a closer look

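In all, 4 values lay far from the other libraries of their group, by the gap to the nearest library relative to the whole range, among 68 groups of 6 libraries, where chance gives about 1 in 20, or 3.4. Control replicate 3 had 0.189 CPM of Hist1h1a, against 0.0358 to 0.0928 CPM in the other controls. Control replicate 6 had 1.503 CPM of Hist2h3c2, against 0.866 to 1.10 CPM in the other controls. For Cdc6, a gene of the DNA replication list, control replicate 1 had 3.79 CPM, against 2.56 to 3.01 CPM in the other controls, and mimic replicate 3 had 4.43 CPM, against 5.43 to 5.82 CPM in the other mimics.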

How the results depend on the processing

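Under every alternative tried, 0 members were called lower, where the share of all genes called lower was 10.5% with DESeq2 size factors, 12.6% with the Wald test, 5.13% without a filter, 14% with a minimum of 20 counts, 9.07% with the replicate block, 1.87% with the minimum fold change and 8.68% to 13% with a library left out. The count of members called was 6 with DESeq2 size factors and without a filter. It was 5 with the DESeq2 Wald test, with the replicate block and with a minimum of 20 counts, which Hist1h1a does not reach. With a minimum fold change of 1.2 it was 3, where the count over all genes was 1035 against 4182. Members tested numbered 15 in the report and 54 without a filter, and 11 had an adjusted p by the Wald test. With the minimum of 20 counts fewer than 15 were tested. The share of all genes called higher was 11.7% with these size factors, 5.95% without a filter, 13.8% with the Wald test, 14.1% with the minimum of 20 counts, 10.3% with the block and 3.62% with the minimum fold change. The 3 members with the minimum fold change were Hist1h1c, Hist1h4i and Hist1h1a, which passed the count limit mainly through the mimic libraries. Leaving out each library in turn gave 5 to 7 members and 3515 to 5154 genes (both highest without control replicate 1), a median log2 fold change of 0.71 to 0.89 over the tested linker members, Hist1h1a included, and of 0.23 to 0.30 over the tested core members. Hist2h4 and Hist3h2a, both near 0 in the report, changed sign without being called. Hist2h4 was at 0.0023 with DESeq2 size factors, 0.0027 with the Wald test, 0.0017 without a filter and 0.0035 with the block, and ran from -0.082 to 0.063 when libraries were left out. Hist3h2a ran from -0.028 to 0.044. With the replicate number as a block Hist1h2bc did not pass (log2 fold change 0.22, adjusted p = 0.0571). Same-numbered samples did not deviate together (correlations from -0.080 to 0.18, no control correlating best with its own number). These correlations cannot show that the samples were prepared without pairing. The block called 3659 genes. Members with a few counts per library have wide intervals, which limit what can be said of Hist1h1e, Hist1h3d and Hist1h4h.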

Other observations

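The 39 members that had counts but stayed below the limit were fitted as well when the filter was set to at least 1 count in any library. Of the 39, 21 (53.8%) had a log2 fold change above 0, against 45.7% of the 33540 genes then tested. By edgeR 0 of them were called, beside 5.95% of these genes called higher and 5.13% lower. At an unadjusted p under 0.05, 2 were higher and 1 lower, beside 10.04% and 10.39% of these genes. The one that was lower, Hist1h3a, had 6 counts in all in control and 1 in mimic, and of those that were higher Hist1h3c had 0 and 4. Hist1h1d, a linker gene with 3 sites for the seed of the mimic, had 14 counts in all in control and 30 in mimic, a log2 fold change of 0.96 (edgeR adjusted p = 0.222). Hist1h1b had 23 and 32 counts and a log2 fold change of 0.37 (edgeR adjusted p = 0.640). Hist4h4, the lone member on chromosome 6, had 19 and 21 counts and a log2 fold change of 0.04 (edgeR adjusted p = 0.980).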
